A study of Mus musculus with 6 samples.

Results

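Transcripts of 7 genes of the neurotrophin system were followed in cultures of enteric glial cells (EGCs), which are the glia of the intestinal wall, at rest and after exposure to lipopolysaccharide (LPS, a component of bacterial cell walls). The genes were taken by symbol and were the ligands Bdnf, Ntf3 and Ntf5 and the receptors Ngfr, Sort1, Ntrk2 and Ntrk3, which are 7 of the 46603 gene identifiers counted. Each of them passed the filter on low counts, Ntf3 and Ntrk3 through their control libraries, after which 15226 genes were tested. Other genes of this family were not analysed here.

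The control group comprised 3 untreated cultures and the LPS group 3 cultures kept with LPS at 100 ng/ml for 12 h. All 6 cultures were derived from whole intestines taken at embryonic day 14.5 from C57BL/6J mice, and the labels name no genetic modification. They were grown as neurospheres with EGF and FGF and then attached in medium with serum until confluence. The labels do not say whether replicates came from separate embryos or cultures, so p-values measure the spread between these samples, which may be technical.

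Neurotrophins are secreted as precursors that are cut into mature ligands. Mature ligands act through Trk receptor tyrosine kinases, Ntrk2 (TrkB) for Bdnf and the Ntf5 product and Ntrk3 (TrkC) for the Ntf3 product, whereas Ngfr encodes the receptor p75, which binds all neurotrophins. Sortilin, encoded by Sort1, pairs with p75 to bind uncut precursors and also sorts proteins inside the cell. In the gut, p75 marks neural crest-derived progenitors and glia, and TrkC signalling takes part in the development of enteric neurons.

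The libraries held between 18775316 and 23664312 counts. Levels are given as CPM, counts scaled to a common library size after correction for composition by the trimmed mean of M-values (TMM). Where 3 values of a group are listed, they are in the order of replicates 1, 2 and 3. A call denotes an adjusted p-value under 0.05 in the edgeR quasi-likelihood test over all genes tested. All 9 glial markers examined were above the filter, and so were 7 neuronal, 5 mesenchymal, 6 smooth muscle and 8 macrophage markers. Transcripts known from several cell types were thus present. The 5 mesenchymal markers summed to between 11544 and 12224 CPM in control and between 11554 and 12158 CPM in LPS. The 9 glial markers summed to between 444.1 and 640.3 CPM in control and between 470.5 and 499.2 CPM in LPS. Sums over different markers do not give cell shares, and none of the 7 genes was assigned to a cell type. In such bulk samples, fewer cells of a type and less RNA per cell cannot be told apart. Replicate 3 of both groups stood apart in its makeup: the 8 macrophage markers summed to 3662, 4644 and 10692 CPM in the controls and to 3706, 4799 and 17413 CPM under LPS. The 7 neuronal markers summed to 240.9 CPM in control replicate 3 and 258.1 CPM in LPS replicate 3, and to between 384.7 and 417.7 CPM in the other libraries.

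Sequence upstream of the transcription start is shown for Ngfr and Ntrk2, the 2 receptors with a matched window. RefSeq promoter windows (GRCm38.p6) were matched for 4 of the 7 genes, Bdnf, Ntf3, Ngfr and Ntrk2. Each sequence below runs 5′ to 3′ on the strand of the gene, covers 200 bases from 250 to 51 bases before the start, and has in capitals the GC box GGGCGG on either strand. The Ngfr window lies at chr11:95587749-95587948 on the minus strand and the Ntrk2 window at chr13:58806319-58806518 on the plus strand. The start is that of the RefSeq window, which for Ngfr differs from the start in the gene coordinates given below.
Ngfr: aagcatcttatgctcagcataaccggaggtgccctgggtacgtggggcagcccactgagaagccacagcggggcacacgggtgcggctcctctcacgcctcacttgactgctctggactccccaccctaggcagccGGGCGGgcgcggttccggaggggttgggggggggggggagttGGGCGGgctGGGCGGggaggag
Ntrk2: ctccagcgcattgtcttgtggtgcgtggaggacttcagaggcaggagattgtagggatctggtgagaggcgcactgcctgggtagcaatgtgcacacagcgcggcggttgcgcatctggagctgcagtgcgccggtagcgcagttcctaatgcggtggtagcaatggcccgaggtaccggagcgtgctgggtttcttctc

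The Ngfr window held 3 GC boxes and had a GC content of 70.0%, and the Ntrk2 window held 0 at 61.0%. Of all 32851 windows of this length, 24.6% held a GC box. Ntf3 has 2 annotated starts, of which 1 had a GC box, and Bdnf has 7, of which 2 had it. The E-box CACGTG was found at 1 start of Ntf3 and at no start of the other 3 genes (4.34% of all windows), and the cyclic AMP response element TGACGTCA at none of these starts (0.828% of all windows). None of the 3 motifs contains another. A match in letters is a description of the sequence and was not related to the expression values.

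First, the levels of the genes at rest were compared with each other per kilobase of exon. Ngfr was by far the highest, at 122.9 ± 16.0 CPM per kb in control (SD, n = 3), which placed it at percentile 98.2 of all genes tested. Sort1 followed at 10.3 ± 1.15 CPM per kb and Bdnf at 6.17 ± 2.54 CPM per kb, and the libraries of these genes did not overlap. Ntf5 at 1.29 ± 0.21 CPM per kb and Ntf3 at 1.12 ± 0.66 CPM per kb overlapped. The Trk receptors were lowest, with Ntrk2 at 0.0955 ± 0.014 CPM per kb and Ntrk3 at 0.0508 ± 0.0023 CPM per kb (SD, n = 3 each), at percentiles 1.64 and 0.712. Their rank depends on the exon length used, since the union of all annotated exons is 19.3 kb for Ntrk2 and 30.2 kb for Ntrk3, and without this correction they lay at percentiles 14.5 and 12.9. Both genes are known to encode full-length and truncated receptors, which counts per gene do not separate.

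In LPS the order was the same except that Bdnf, at 5.25 ± 2.15 CPM per kb, and Sort1, at 4.27 ± 1.14 CPM per kb, exchanged places and overlapped. Ngfr remained highest at 104.8 ± 3.34 CPM per kb and percentile 97.2. Ntf5 (0.651 ± 0.336 CPM per kb) again overlapped Ntf3 (0.228 ± 0.106 CPM per kb). Ntrk2 was at 0.0908 ± 0.012 and Ntrk3 at 0.0171 ± 0.0071 CPM per kb (SD, n = 3 each), with no overlap between them. This order depends on the length correction. In mean CPM under LPS, Ntf3 (0.391) lay below Ntrk3 (0.515), and Ntrk2 (1.75) lay beside Ntf5 (1.73).

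**Figure D1:**
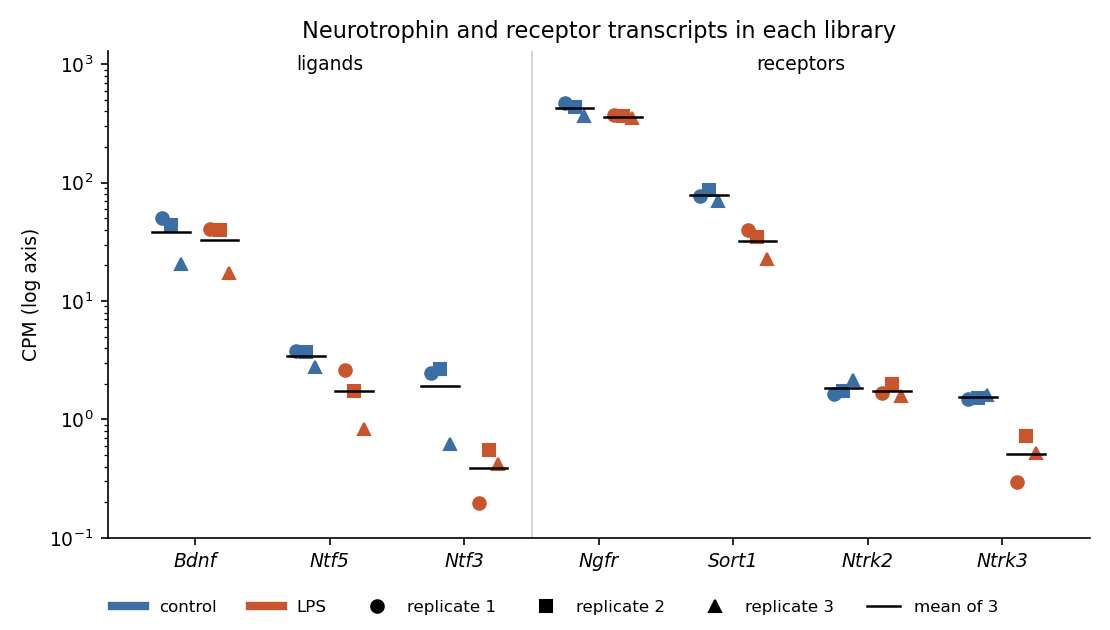
CPM of each gene in each of the 6 libraries on a log axis, with ligands on the left and receptors on the right. Colour gives the group, symbol shape the replicate number and the black line the mean of 3 libraries. Ngfr lay between 349.0 and 469.0 CPM in every library, whereas Ntrk2 and Ntrk3 never exceeded 2.15 CPM.

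Next, it was asked whether exposure to LPS altered these transcripts. None of the 7 genes was called higher in LPS and 2 were called lower, Sort1 and Ntrk3. Among all genes tested, 6.71% were called lower and 9.09% higher, 15.8% in either direction. All 7 log2 fold changes were below 0, with a median of -0.98 against -0.02 over all genes, of which 52.0% were below 0. In 4 of the 7 genes, Ntf3, Ntf5, Ntrk3 and Sort1, each LPS library was below each control library, a pattern seen in 19.4% of all genes, and 19.3% showed the reverse. At an unadjusted edgeR p under 0.05, 3 of the genes were lower and 0 higher, against 16.0% and 16.1% of all genes. DESeq2 called 3 lower and 0 higher, against 6.54% and 8.26% of the 24879 genes with any count. That is a wider set than the 15226 genes behind the other shares. Ntf3 (4, 10 and 8 counts under LPS) and Ntrk3 (6, 13 and 10) passed the filter through their control libraries. Genes let in by 1 group tend to lie higher in that group, which bears on the counts above. With no filter, Ntrk3 was still called lower (adjusted p = 0.0473 by edgeR) and Ntf3 was not (0.0808).

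Among the receptors, Sort1 (ENSMUSG00000068747, chromosome 3, 108284082 to 108361511, GRCm38, plus strand) fell in LPS. It was at 76.7, 87.4 and 70.2 CPM in the controls and at 39.6, 34.5 and 22.8 CPM under LPS. Every LPS library thus lay well below the lowest control, and LPS replicate 3 was the lowest of all. Mean levels (± SD, n = 3 each) were 78.1 ± 8.69 CPM without and 32.3 ± 8.61 CPM with LPS. The log2 fold change was -1.27 with an SE of 0.22 and an adjusted p of 0.0170 by edgeR, which corresponds to 41.4% of the control level. These values rest on 1698 to 1974 counts in a control library and 436 to 802 counts in an LPS library.

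The call for Sort1 was lost without control replicate 1 (adjusted p = 0.0692), control replicate 2 (0.0855) or LPS replicate 2 (0.0709), with log2 fold changes between -1.18 and -1.32 in these edgeR fits. Leaving out a library also lowered the share of all genes called lower, to 1.25%, 0.72% and 6.66% without control replicates 1, 2 and 3 and to 1.44% and 1.04% without LPS replicates 1 and 2, and raised it to 9.13% without LPS replicate 3. Without LPS replicate 3, which had the highest macrophage sum, mostly from Lyz2, Sort1 had a log2 fold change of -1.08 with an edgeR adjusted p of 0.00535. With the replicate number as a block the value was -1.30 (adjusted p = 0.00631). Smooth muscle markers fell in the same direction as Sort1, with 6 of 6 called lower, summing to between 2266 and 2492 CPM in control and between 634.1 and 900.3 CPM in LPS, and none of them at 0. The 4 mesothelial markers, 1 of them called lower, summed to between 61.5 and 93.2 CPM in control and between 31.6 and 55.3 CPM in LPS. The 3 markers of interstitial cells of Cajal, 1 of them called lower, summed to between 68.2 and 203.5 CPM in control and between 50.5 and 87.0 CPM in LPS. The part of these cell types in the result for Sort1 was not tested. An antisense gene shares 338 bases of exon with Sort1 and had at most 2 counts in a library.

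Ntrk3 (ENSMUSG00000059146, chromosome 7, 78175959 to 78738012, minus strand) fell as well, from a low level. The counts were 35, 34 and 39 in the controls and 6, 13 and 10 under LPS, or 1.48, 1.51 and 1.61 CPM against 0.297, 0.724 and 0.523 CPM. Control libraries were closely grouped, while LPS libraries were spread over a wider range below them. The log2 fold change was -1.57 (SE 0.35, adjusted p = 0.0341 by edgeR), or 33.6% of control. Few reads stand behind this call, and it was lost in each of the 6 fits that left out 1 library, with adjusted p-values from 0.0526 without LPS replicate 3 to 0.133 without control replicate 2. The log2 fold change in these fits stayed between -1.89 and -1.29.

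TrkC is found on enteric neurons, and the neuronal markers were therefore read beside Ntrk3. Of the 7, 1 was called lower by edgeR, and the other 6, among them Elavl4, Tubb3 and Uchl1, had log2 fold changes between -0.13 and 0.13. The summed neuronal markers ranged from 240.9 to 417.7 CPM in control and from 258.1 to 397.1 CPM in LPS, and none was at 0. Their part in the result for Ntrk3 was not tested.

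The other Trk receptor, Ntrk2 (ENSMUSG00000055254, chromosome 13, 58806569 to 59133970, plus strand), was close to its control level. It was at 1.65, 1.73 and 2.15 CPM in the controls and at 1.68, 2.01 and 1.57 CPM under LPS. The groups overlapped throughout. Its log2 fold change was -0.07 (SE 0.22, adjusted p = 0.853 by edgeR), and it was 0.07 without control replicate 3. With 30 to 52 counts in a library and 3 libraries in each group, a change of small size could have been missed. That Ntrk3 was called and Ntrk2 was not does not show that they differed, and this difference was not tested.

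Ngfr (ENSMUSG00000000120, chromosome 11, 95568818 to 95587735, minus strand) was abundant in every library. It was at 469.0, 439.3 and 362.4 CPM in the controls and at 372.0, 362.3 and 349.0 CPM under LPS. Control replicate 3 overlapped the LPS libraries, whereas control replicates 1 and 2 were above all of them. Mean levels were 423.6 ± 55.0 and 361.1 ± 11.5 CPM (SD, n = 3 each), and the log2 fold change of -0.23 (SE 0.11) was not called (adjusted p = 0.227 by edgeR). The 9 glial markers, of which Ngfr is not one, summed to 640.3, 584.2 and 444.1 CPM in the controls and to 473.1, 499.2 and 470.5 CPM under LPS, with control replicates 1 and 2 again above the others, and their part in the Ngfr values was not tested. Of these 9, S100b (log2 fold change -1.91) and Cdh19 (-0.66) were called lower and Fabp7 (1.29) higher by edgeR. With 6502 to 11069 counts in a library, counting error was small here and the spread between libraries set the precision. The adjusted p ranged from 0.0668 to 0.531 over all alternatives tried.

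The transcripts of p75 and sortilin were also read against each other within each library. Per kilobase of exon, Ngfr exceeded Sort1 by a ratio of 13.4, 11.0 and 11.3 in the controls and by 20.6, 23.1 and 33.6 under LPS. The ratios of the groups did not overlap, which follows largely from the Sort1 values above and is not a further result. This ratio was chosen after the values were seen and is given without a test.

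Of the ligands, Bdnf (ENSMUSG00000048482, chromosome 2, 109674700 to 109727007, plus strand) was the most abundant. It was at 50.4, 44.2 and 20.5 CPM in the controls and at 40.9, 39.8 and 17.2 CPM under LPS. Replicate 3 was low in both groups, so that the difference between replicate numbers was larger than that between treatments. The log2 fold change was -0.23 (SE 0.45, adjusted p = 0.766 by edgeR), and its sign turned without control replicate 1 (0.02) or LPS replicate 3 (0.07). Within replicate numbers, by contrast, LPS was lower than control in all 3, by -0.30, -0.15 and -0.25 on the log2 scale, and the SE shrank to 0.07 with the replicate number as a block, although Bdnf was still not called (-0.24, adjusted p = 0.0598).

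The low Bdnf in replicate 3 went together with the lower neuronal and higher macrophage sums given above, and their part in it was not tested. An antisense gene shares 896 bases of exon with Bdnf in the annotation and has no row of its own in the counts, so its reads, if counted without strand, cannot be told apart from those of Bdnf.

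Ntf3 (ENSMUSG00000049107, chromosome 6, 126101412 to 126166910, minus strand), the ligand of TrkC, had the log2 fold change furthest below 0 of the 7 genes but was not called. It had 58, 60 and 15 counts in the controls and 4, 10 and 8 counts under LPS, or 2.46, 2.66 and 0.62 CPM against 0.198, 0.557 and 0.419 CPM. Control replicate 3 lay just above the highest LPS library and far below the other controls. The 3 markers of interstitial cells of Cajal, the pacemaker cells of the gut, summed to 202.5, 203.5 and 68.2 CPM in the controls and 87.0, 78.4 and 50.5 CPM under LPS, so that control replicate 3 was below 2 of the LPS libraries. Of the 3, Kit was called lower (adjusted p = 0.0473 by edgeR), while Ano1 (0.242) and Etv1 (0.535) were not, and their part in the Ntf3 values was not tested. On the log2 scale it differed by -2.28 (SE 0.67, adjusted p = 0.0734 by edgeR). Ntf3 was called lower without control replicate 3 (-2.69, adjusted p = 0.0209) and by DESeq2 (-2.28, adjusted p = 0.0124), and its adjusted p in the other alternatives was between 0.0512 and 0.216.

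Ntf5 (ENSMUSG00000074121, chromosome 7, 45413695 to 45417179, plus strand) encodes a further ligand of TrkB. It was at 3.77, 3.72 and 2.77 CPM in the controls and at 2.62, 1.73 and 0.837 CPM under LPS. LPS replicate 1 came close to control replicate 3, but the groups did not overlap. The log2 fold change of -0.98 (SE 0.42) was not called (adjusted p = 0.172 by edgeR), nor was it called in any alternative, where the adjusted p ranged from 0.0515 to 0.367. These values rest on 67 to 89 counts in a control and 16 to 53 counts in an LPS library.

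**Figure D2:**
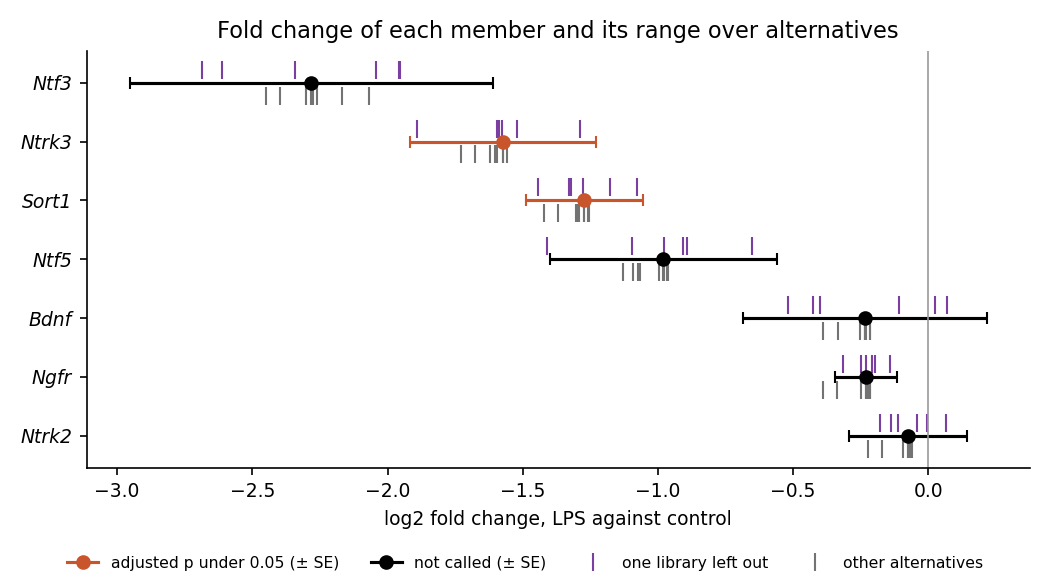
Log2 fold change of LPS against control for each gene, with the SE of the edgeR quasi-likelihood fit as error bars. Ticks above each point are the fits that left out 1 library and ticks below are the other alternatives. Sort1 and Ntrk3, in orange, were called; the ticks of Bdnf and Ntrk2 fall on both sides of 0, those of the other 5 genes on the negative side.

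The libraries of replicate number 3 deviated together from their group means, and the comparison was therefore also read within numbers. The deviations did not tell numbers 1 and 2 from each other, so the pairing of these is less certain. Of the 7 genes, 6 were lower in LPS for each of the 3 numbers, a pattern found in 34.6% of all genes, and Ntrk2 was the exception. The log2 ratio for Sort1 was -0.95, -1.34 and -1.62 for numbers 1, 2 and 3. For Ntrk3 it was -2.32, -1.05 and -1.62, and for Ntf5 -0.53, -1.11 and -1.73. Ntf3 varied most, with -3.64, -2.25 and -0.57, and Ngfr was at -0.33, -0.28 and -0.05. With the replicate number as a block, the same 2 genes were called lower, against 14.9% of all genes (15.4% were called higher), and Ntf3 (adjusted p = 0.0512) and Ntf5 (0.0515) lay just outside the limit by edgeR.

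**Figure D3:**
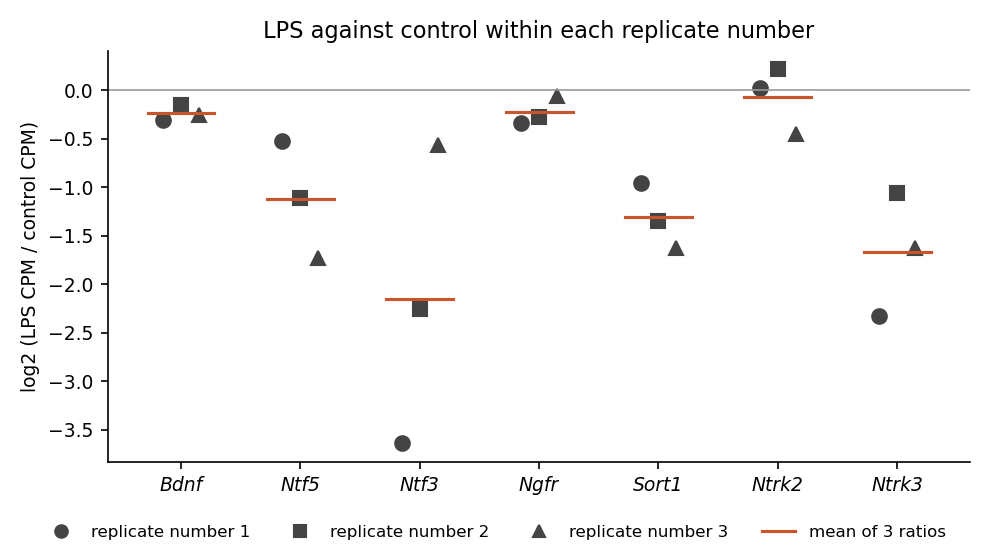
Log2 ratio of LPS to control CPM for libraries that share a replicate number, with symbol shape giving the number and the orange line the mean of the 3 ratios. Ratios of Bdnf lay between -0.30 and -0.15, whereas those of Ntf3 ran from -3.64 to -0.57.

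The genes around the neurotrophins in the pathway were examined in 3 lists, of proteases and sorting proteins for the precursors, of partners and adaptors of p75, and of adaptors and effectors of Trk receptors. The lists held 62 genes, of which 60 passed the filter. In all, 9 were called higher and 8 lower in LPS (28.3%, against 15.8% of all genes), and the median log2 fold change was 0.01. With the replicate block the numbers were 14 higher and 14 lower, while the shares of all genes also went up, to 15.4% higher and 14.9% lower. In the fits without 1 library the list genes called higher and lower numbered 2 and 0 without control replicate 2, 3 and 1 without control replicate 1, and 5 and 0 without LPS replicate 1 or LPS replicate 2. The share of all genes called higher was 3.03%, 2.44% and 7.52% without control replicates 1, 2 and 3 and 3.98%, 3.36% and 12.6% without LPS replicates 1, 2 and 3.

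Among the 16 genes for processing and sorting of precursors, 6 were called higher and 2 lower, against 9.09% and 6.71% of all genes, and the median log2 fold change was 0.39. With the replicate block 7 were higher and 4 lower, against 15.4% and 14.9% of all genes. The matrix metalloproteinases Mmp9 and Mmp3, which can cut neurotrophin precursors outside the cell, rose most. Mmp9 went from 10.0 ± 0.44 to 675.9 ± 324.5 CPM (means of 3 libraries ± SD, log2 fold change 6.07, SE 0.49, adjusted p = 0.00176 by edgeR), with 875.2, 850.9 and 301.4 CPM under LPS. Mmp3 went from 35.8 ± 13.3 to 3403 ± 2349 CPM (means of 3 libraries ± SD, log2 fold change 6.57, SE 0.90, adjusted p = 0.00909 by edgeR), and LPS replicate 3, at 735.5 CPM, was far below the other LPS libraries at 4312 and 5162 CPM. The call for Mmp9 was kept in all 6 fits without 1 library, and that for Mmp3 was lost without control replicate 1 or control replicate 2, with an adjusted p of at most 0.0613.

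The activators of plasminogen, a system that also cuts these precursors, moved in both directions. Plat, which encodes the tissue-type plasminogen activator, rose from 183.4 ± 10.9 to 282.9 ± 6.70 CPM (means of 3 libraries ± SD, log2 fold change 0.63, SE 0.08, adjusted p = 0.00641 by edgeR) and kept its call without any 1 library. The urokinase-type activator Plau fell by 1.74 on the log2 scale (adjusted p = 0.0291 by edgeR), and it lost its call without control replicate 2, LPS replicate 1 or LPS replicate 2. Furin, a protease that cuts the precursors inside the cell, rose from 176.6 ± 24.7 to 242.7 ± 5.51 CPM (means of 3 libraries ± SD, log2 fold change 0.46, adjusted p = 0.0458 by edgeR). Among the fits without 1 library, Furin kept its call only without control replicate 3. It was also not called with upper-quartile factors, library size alone or no filter.

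Relatives of sortilin differed in direction from one another. Sorcs1 was at 4.41, 3.85 and 3.06 CPM in the controls and at 55.0, 60.9 and 17.8 CPM under LPS, and rose by 3.56 on the log2 scale (SE 0.51, edgeR adjusted p = 0.0104). Sorcs2, a partner of p75 for precursors, was at 55.8, 53.5 and 56.4 CPM in control and 31.0, 31.6 and 44.0 CPM in LPS, and fell by 0.64 on the log2 scale (SE 0.15, edgeR adjusted p = 0.0419). In both, LPS replicate 3 was the LPS library closest to control. Sorl1 (log2 fold change -0.08) and Sorcs3 (-0.16) were not called. The call for Sorcs1 was lost without control replicate 1 or control replicate 2 (adjusted p at most 0.0655), and Sorcs2 kept its call only without LPS replicate 3. Other genes of this list that were not called include Cpe, a sorting receptor for the Bdnf precursor (1270 ± 344.6 to 869.7 ± 191.8 CPM, SD, n = 3 each), and the proprotein convertases Pcsk6 (log2 fold change -1.50) and Pcsk7 (0.37), and Serpini1 (0.41). With the replicate block, Cpe (adjusted p = 0.00876) and Pcsk6 (0.00541) were called lower and Pcsk7 (0.0380) higher by edgeR.

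The filter left 21 partners and adaptors of p75, with 3 called higher and 2 lower (23.8%, against 15.8% of all genes) and a median log2 fold change of -0.04. With the replicate block 4 were higher and 4 lower, near the 15.4% and 14.9% of all genes. Adam17, a protease that sheds the outer part of p75, rose from 132 ± 21.1 to 276.3 ± 34.9 CPM (means of 3 libraries ± SD, log2 fold change 1.07, SE 0.15, adjusted p = 0.0104 by edgeR), and Ncstn, a subunit of the gamma-secretase that then cuts within the membrane, from 220.6 ± 5.52 to 292 ± 0.99 CPM (means of 3 libraries ± SD, 0.40, SE 0.06, adjusted p = 0.0146). Ripk2, an adaptor kinase shared with bacterial sensing, rose by 2.32 (adjusted p = 0.0186). Tnfrsf19, which can take the place of p75 in a receptor complex with Lingo1, fell by 1.40 on the log2 scale (adjusted p = 0.0269 by edgeR). Rtn4r, the Nogo receptor of that complex, fell by 1.10 (adjusted p = 0.0491 by edgeR). The call for Rtn4r was not made with the replicate block (0.0522), with RLE scaling factors, with no filter or by limma-voom.

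Adam17 lost its call without control replicate 2 (adjusted p = 0.0659). Among the fits without 1 library, Ncstn, Ripk2 and Tnfrsf19 kept their calls only without control replicate 3 or LPS replicate 3. Rtn4r kept its call only without control replicate 3. Ncstn was also not called with library size alone. The most abundant genes of this list that were not called were Arhgdia (log2 fold change 0.15), Rhoa (-0.04), Maged1 (-0.04) and Adam10 (-0.39, adjusted p = 0.0504 by edgeR). Adam10 was called lower with the replicate block (0.0138).

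Of the 23 Trk adaptors and effectors, 0 were called higher and 4 lower (17.4%, close to the 15.8% of all genes), with a median log2 fold change of -0.03. With the replicate block 3 were higher and 6 lower, against 15.4% and 14.9% of all genes. Plcg1, the phospholipase recruited by active Trk receptors, fell from 97.7 ± 7.69 to 67.2 ± 3.72 CPM (means of 3 libraries ± SD, log2 fold change -0.54, SE 0.09, adjusted p = 0.0150 by edgeR). Kidins220, a scaffold bound to Trk receptors and p75, fell by 0.34, and the phosphoinositide 3-kinase subunits Pik3r1 and Pik3r2 fell by 0.34 and 0.32 on the log2 scale (adjusted p = 0.0314, 0.0278 and 0.0276 by edgeR). These changes were small in size. Among the fits without 1 library, the calls for Plcg1, Kidins220 and Pik3r2 were kept only without control replicate 3 or LPS replicate 3. That for Pik3r1 was kept only without LPS replicate 3. With no filter, Kidins220, Pik3r1 and Pik3r2 were not called. The most abundant genes of this list that were not called were Ptpn11 (log2 fold change 0.25), Crk (0.14), Shc1 (0.14) and Lrig1 (0.64), of which Ptpn11 (adjusted p = 0.0351) and Lrig1 (0.0197) were called higher by edgeR with the replicate block.

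**Figure D4:**
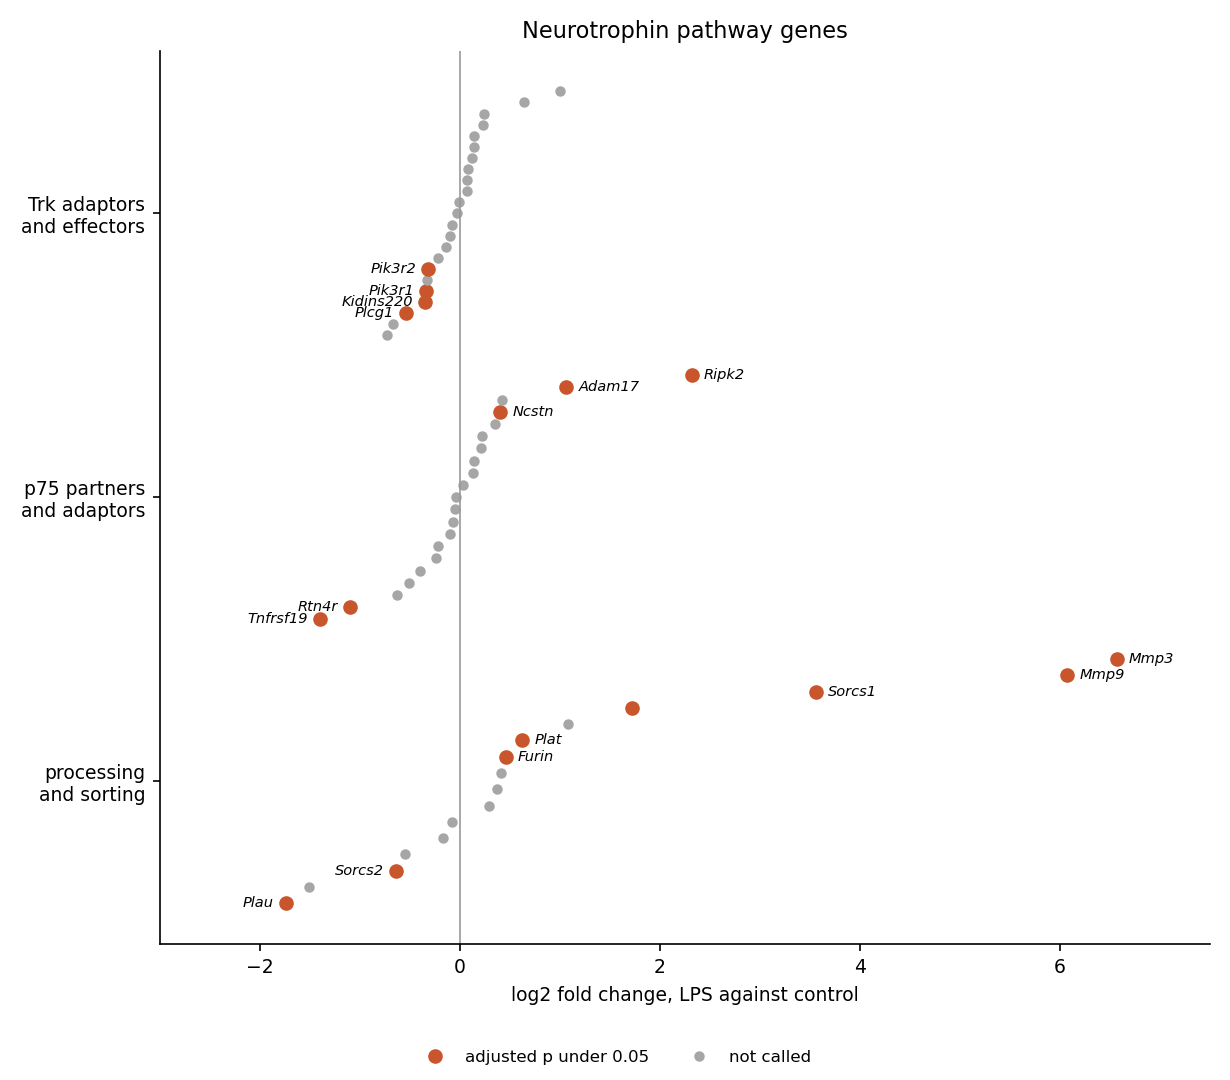
Log2 fold change of LPS against control for the 60 pathway genes that passed the filter, in 3 lists and ordered within each list by value, with called genes in orange, all but 1 of them named. Called genes lie on both sides of 0 in the lists for processing and for p75, and only below 0 among the 4 called Trk adaptors.

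Finally, the genes with the most similar pattern over the 6 libraries were sought for each member by Pearson correlation of log2 CPM among genes with a mean of at least 5 CPM. The closest to Sort1 were Soga1, S100a1 and the smooth muscle actin gene Acta2 (r = 0.997, 0.995 and 0.993). For Ngfr they were Dync1li2, Dlg1 and Aasdhppt (r = 0.996, 0.995 and 0.994), and for Bdnf Cfl2, Ddr1 and Tmcc2 (r = 0.999, 0.999 and 0.998). Ntf3 was most like Pcdh20, Airn and Ubxn1 (r = 0.998, 0.990 and 0.988), and Ntf5 most like Kdm1b, Cdk4 and Lta4h (r = 0.997, 0.994 and 0.994). Asns, Ubac1 and Ttl were closest to Ntrk3 (r = 0.993, 0.992 and 0.987), and Mettl25, Kif21b and Acbd6 to Ntrk2 (r = 0.983, 0.958 and 0.955). Many genes reached high values with 6 libraries, as 625 of 11045 genes exceeded 0.9 with Sort1, 630 with Bdnf and 15 with Ntrk2, and the points share the 2 treatments and 3 replicate numbers.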

How the data were processed

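The files deposited by the authors hold unnormalized read counts for each gene in 6 poly(A) libraries. Per the labels and series text, the authors trimmed reads with cutadapt 1.15, removed contaminants with Bowtie2 2.3.3.1, aligned to GRCm38 with STAR 2.5.2b and used SAMtools 1.5, and featureCounts 1.5.3 is named in their processing notes. The strand setting is not given in the sources used here. The table of all libraries held the same counts as the 6 single files.

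Genes were filtered with filterByExpr of edgeR 4.0.16 in R 4.3.3 (minimum count 10, minimum total 15) and scaled with TMM, and groups were compared with the quasi-likelihood F-test, two-sided, with Benjamini-Hochberg adjustment. SEs were derived from each log2 fold change and its F statistic. Exon lengths and coordinates come from GENCODE M21 (46005 of 46603 identifiers matched). Other scalings and filters, DESeq2 1.42.0, limma-voom (limma 3.58.1), a replicate block and leaving out each library were tried, and the test was checked on simulated counts. Deviations from group means correlated between same-numbered control and LPS libraries (r = 0.513, 0.334 and 0.613 for numbers 1, 2 and 3), so the numbers were taken to pair them, from the data and not from the labels. These values set number 3 apart but do not tell numbers 1 and 2 from each other (control 1 with LPS 2 r = 0.419, control 2 with LPS 1 r = 0.323). Named are all 7 genes, called list genes (except 1, not reported here), up to 4 uncalled genes of each list by mean CPM, a few further list genes chosen after their values were seen (Sorl1, Sorcs3), a few cell type markers likewise, and the 3 most similar genes for each. The members and lists were chosen with earlier results of these data known.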

Additional observations from a re-analysis of the deposited data

How the results depend on the processing

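Directions held for Ntf3, Ntf5, Ngfr, Ntrk3 and Sort1 in every alternative run. Ntf3 and Ntrk3 could not be fitted with at least 10 counts required in every library, since the filter removed them, and the table of all libraries gave the same values as the single files. Over the fits without 1 library, the log2 fold change ran from -1.44 to -1.08 for Sort1, from -1.89 to -1.29 for Ntrk3, from -2.69 to -1.96 for Ntf3, from -1.41 to -0.65 for Ntf5, from -0.32 to -0.14 for Ngfr, from -0.52 to 0.07 for Bdnf and from -0.18 to 0.07 for Ntrk2. The sign of Bdnf turned without control replicate 1 (0.02) and without LPS replicate 3 (0.071), that of Ntrk2 without control replicate 3 (0.067). DESeq2 called Ntf3 (-2.28, adjusted p = 0.0124). The cause of these changes was not tested.

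Over all genes, the number called lower was 1022, against 1589 with upper-quartile factors, 2054 with library size alone, 1627 with DESeq2 and 2273 with the replicate block, and from 112 to 1426 without 1 library. The number called higher was 1384, against 2343 with the replicate block and from 379 to 1964 without 1 library. TMM put the median over all genes at -0.02, upper-quartile factors at -0.12 and uncorrected library sizes at -0.18, a shift that by construction applies to every gene. Among pathway genes the replicate block gave 14 higher and 14 lower, no filter gave 4 lower, and without 1 library from 2 to 9 were higher and from 0 to 9 lower. The replicate block changed no call of the 7 members (Sort1 -1.30, Ntrk3 -1.60, Ntf3 -2.17, Ntf5 -1.07, Ngfr -0.22, Bdnf -0.24, Ntrk2 -0.07).

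Percentiles of level moved without length correction, from 69.9 to 81.3 for Sort1 in control and from 46.0 to 59.1 in LPS, from 1.64 to 14.5 for Ntrk2 in control and from 1.36 to 13.9 in LPS, from 0.712 to 12.9 for Ntrk3 in control and from 0.0527 to 2.67 in LPS, to 20.8 for Ntf5 in control and to 1.08 for Ntf3 in LPS. Without 1 LPS library, Ntrk2 in LPS lay between percentiles 1.32 and 1.72. Counts of Ntrk2, Ntrk3, Ntf3 and Ntf5 were below 100 in every library, so that counting error adds to their spread. The parts of depth and of differences between libraries were not separated.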
